A study of Mus musculus with 2 samples.

Results

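S100a5, Pcp4l1, Kirrel2, Kirrel3, Cidea, Srxn1 and Kcnn2 were examined as a set of 7 genes linked to the activity of olfactory sensory neurons, out of 32534 features counted in single-cell RNA-seq of mouse olfactory epithelium. They were taken by symbol, each matched 1 row in both count matrices, and the rule used no measured level. Their levels were read in Omp-high cells, meaning cells in which Omp, the marker of mature olfactory sensory neurons, made up at least 0.15% of the counted molecules. There were 781 such cells among 1745 in the OR1A1-transgenic library and 490 among 1117 in the wild-type library.

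The study made 1 library from each of 2 female mice. The OR1A1-transgenic mouse was 9 weeks old, with the genotype Tg(Or8a1-OR1A1,-MAPT/mCherry)D736Feins/+ on a strain named for the same transgene. By the name of its allele, it carries a human odorant receptor, OR1A1, under control sequences of the mouse receptor gene Or8a1, together with a MAPT/mCherry reporter. The wild-type mouse was 8 weeks old, of a cross given as 10G4-V2.2-#7/Jax with Bl6/129SF1/J and of wild-type genotype. Both tissues were dissociated with enzymes and strained, no sort for mCherry is mentioned in the labels, and housing and odour exposure are not given in the sources used here. Genotype, strain, age, animal and library therefore cannot be told apart, and a difference between the libraries has no replicate check, so no p-value is given.

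Each mature olfactory sensory neuron expresses a single odorant receptor gene (an Olfr gene in these annotations), and the receptor's signalling through cAMP sets how often the cell fires, both at rest and with odour. Some transcripts follow that activity, and some adhesion molecules on the axon follow it too, so that axons of neurons with the same receptor sort into shared glomeruli in the olfactory bulb. S100a5 encodes a calcium-binding protein of the S100 family, abundant in these neurons and known to fall when a nostril is closed. Pcp4l1 encodes a small protein with an IQ motif, related to the calmodulin-binding Pcp4. Kirrel2 and Kirrel3 encode homophilic adhesion molecules of the immunoglobulin family, which are known to follow activity in opposite directions, Kirrel2 upward and Kirrel3 downward. Cidea encodes a lipid droplet protein, Srxn1 the enzyme sulfiredoxin, which restores oxidised peroxiredoxins, and Kcnn2 a calcium-activated potassium channel of the SK type.

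Promoters were printed for the 4 of the 7 genes that had a RefSeq entry. Of these, S100a5, Pcp4l1 and Kirrel2 varied together across neurons, and little of the variance of Srxn1 lay between neurons of different receptors. The sequences are the 250 bases before the gene's start, from RefSeq on build GRCm38.p6. The cells were counted on another build, GRCm39, so no coordinate was joined to the counts. No RefSeq entry was found for Kirrel3, Cidea and Kcnn2.
S100a5, chr3:90608272-90608521, + strand: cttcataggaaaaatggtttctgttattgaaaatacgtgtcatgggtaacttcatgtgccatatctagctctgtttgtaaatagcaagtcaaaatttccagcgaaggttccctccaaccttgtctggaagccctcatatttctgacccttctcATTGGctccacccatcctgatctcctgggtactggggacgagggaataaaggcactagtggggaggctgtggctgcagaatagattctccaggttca
Pcp4l1, chr1:171196269-171196518, - strand: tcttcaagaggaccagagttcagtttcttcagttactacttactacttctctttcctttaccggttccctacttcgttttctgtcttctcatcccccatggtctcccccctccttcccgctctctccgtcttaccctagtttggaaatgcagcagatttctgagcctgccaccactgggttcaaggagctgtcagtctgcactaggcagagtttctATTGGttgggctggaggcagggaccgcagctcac
Kirrel2, chr7:30457516-30457765, - strand: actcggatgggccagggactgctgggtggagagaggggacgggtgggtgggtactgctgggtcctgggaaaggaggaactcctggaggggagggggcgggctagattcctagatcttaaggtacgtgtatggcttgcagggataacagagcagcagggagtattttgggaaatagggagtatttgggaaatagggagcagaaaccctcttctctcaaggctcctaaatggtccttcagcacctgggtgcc
Srxn1, chr2:152105274-152105523, + strand: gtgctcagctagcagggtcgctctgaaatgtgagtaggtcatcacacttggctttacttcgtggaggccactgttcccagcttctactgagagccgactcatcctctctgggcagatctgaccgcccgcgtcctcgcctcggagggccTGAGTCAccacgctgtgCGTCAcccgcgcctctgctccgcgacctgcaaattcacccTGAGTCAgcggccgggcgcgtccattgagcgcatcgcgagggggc
Capitals mark motif matches. The motifs searched on both strands were the full cAMP response element TGACGTCA, which 1.55% of 32817 RefSeq promoters of this length hold, the TGACG of its half-site, which overlaps the full element and is in 17.7%, the AP-1 letters TGANTCA in 6.75%, the Ebf site in 0.78%, the homeodomain letters TAATTA in 4.85% and, added after reading the sequences, the CCAAT box in 33.8%. S100a5 and Pcp4l1 each held a CCAAT box, read as ATTGG on the strand printed, beginning 97 and 34 bases before the start. Srxn1 held the AP-1 letters beginning 102 and 45 bases before the start, with the half-site of the cAMP response element between them at 85, read as CGTCA. None of the 6 patterns was in the Kirrel2 window. A match describes these letters and is not a binding site.

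The 4 genes S100a5, Pcp4l1, Kirrel2 and Kirrel3 differed most between the Omp-high cells of the 2 libraries. S100a5, Pcp4l1 and Kirrel2 were higher in Omp-high cells of the OR1A1-transgenic mouse, by 1.74-fold, 2.3-fold and 2.01-fold, and Kirrel3 was 2.01-fold lower. Cidea was 1.11-fold higher, and Srxn1 and Kcnn2 were 1.14-fold and 1.09-fold lower. Levels are given as CPM, the gene's unique molecular identifiers (UMIs, 1 per captured mRNA) per 1000000 UMIs summed over the cells named, with a 95% exact Poisson interval that covers counting error only.

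S100a5 stood at 17901 CPM (interval 17825 to 17978) in the transgenic library and at 10271 CPM (10194 to 10348) in the wild type. Cell by cell, its lowest value, median and highest value were 0, 14343 and 120640 CPM in the transgenic library against 0, 4467 and 81296 CPM in the wild type. The cells of the 2 libraries overlapped, and 72.1% of transgenic cells lay above the wild-type median. As a ratio, the lower quartile differed more than the upper one, at 3623 against 293 CPM below and 27058 against 13783 CPM above. In CPM the upper quartile differed more. On the log2 scale, with 1 UMI added to each count, the summed ratio was 0.80 (0.79 to 0.81, a 95% binomial interval for counting error only).

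Pcp4l1 differed in the same direction, with 2085 CPM in the transgenic library and 907 CPM in the wild type. Its median cell held 1789 CPM against 132 CPM, and its highest cell 9092 against 8221 CPM. A Pcp4l1 UMI was found in 89% of transgenic and 56.9% of wild-type Omp-high cells, and in 86% and 53.2% after each cell was thinned to 7900 UMIs, which left out 33 and 46 shallower cells. Many wild-type neurons thus had no Pcp4l1 molecule counted, while most transgenic neurons had at least 1. In fibroblast-like cells, with median UMIs of 10916 and 10484, the share with a Pcp4l1 UMI was 29.8% and 27.3%. The log2 ratio was 1.20 (1.16 to 1.24).

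For the 2 adhesion genes the libraries differed in opposite directions. Kirrel2 had 905 CPM in the transgenic library and 451 CPM in the wild type, with median cells at 836 and 359.7 CPM and highest cells at 4761 and 3221 CPM. Kirrel3 had 28.7 CPM against 57.7 CPM, from 338 and 389 UMIs. Its median cell was at 0 in both libraries, its highest cell held 387 and 667 CPM, and a UMI was found in 27.7% of transgenic against 41.8% of wild-type cells, against 2.38% and 2.27% of fibroblast-like cells. In single neurons Kirrel3 was therefore mostly 0 or a few UMIs. The log2 ratios were 1.00 (0.95 to 1.06) for Kirrel2 and -1.01 (-1.22 to -0.79) for Kirrel3, so both sat at the 2-fold line with intervals that crossed it.

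The lipid droplet, antioxidant and channel genes were at low and similar levels. Cidea had 101 CPM in the transgenic library and 91 CPM in the wild type, with a UMI in about the same share of cells, 33.5% and 33.7%. Fibroblast-like cells had a Cidea UMI in 5.95% and 2.27% of cells. Srxn1 had 19.3 and 21.9 CPM, not far above its 14 and 10.4 CPM in fibroblast-like cells. Kcnn2 had 58.3 and 63.3 CPM. The intervals of the log2 ratios of Srxn1 (-0.49 to 0.12) and Kcnn2 (-0.30 to 0.06) included 0.

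**Figure D1:**
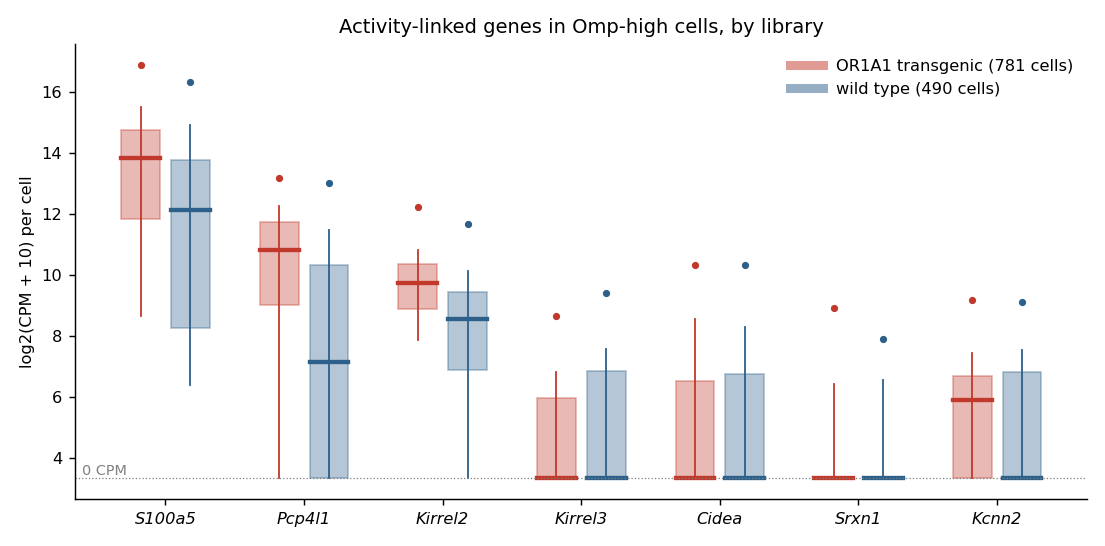
log2(CPM + 10) of each of the 7 genes in single Omp-high cells of the OR1A1-transgenic (781 cells) and wild-type (490 cells) libraries: boxes span the quartiles, thick lines are medians, thin lines run from the 10th to the 90th percentile, points are the highest cell, and the dotted line is 0 CPM. S100a5, Pcp4l1 and Kirrel2 sit higher in the transgenic library, with overlap between the libraries, and the median cell has no Kirrel3, Cidea or Srxn1 UMI.

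Of all genes with at least 20 CPM and 50 UMIs in 1 of the libraries, 4.52% of 7186 were 2-fold or more apart, 1.43% higher and 3.09% lower in the transgenic library. Among the 7 genes, which all passed that minimum, Pcp4l1 and Kirrel2 were past 2-fold higher and Kirrel3 past 2-fold lower. The median log2 ratio was 0.14 for the 7 genes and -0.04 for all genes measured. These counts lean on a fixed line: the count of higher genes fell to 1 with an Omp minimum of 0.1%. With cells limited to a mitochondrial share of 5% it was 0, with log2 ratios of 0.59 for S100a5 and 0.91 for Pcp4l1.

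The Omp-high cells differed in make-up as well, and these values stand beside the library differences, where their part was not tested. Omp itself was at 4671 and 4738 CPM. A cluster led by Calb2 was left unnamed, with Gap43 and Stmn4 of the immature neuron markers among its leading genes. It made up 15.1% of transgenic and 5.71% of wild-type Omp-high cells. Gap43 was at 243 and 108 CPM, while the 9 immature neuron markers summed to 3194 and 3043 CPM. Of the 9, 1 was 2-fold or more higher in the transgenic library and 1 was 2-fold or more lower. Summed over their marker lists, the Omp-high cells held 302 and 91 CPM of 5 erythroid genes, 16.1 and 85.4 CPM of 5 neutrophil genes and 945 and 1115 CPM of 6 sustentacular genes. The 9 mature neuron markers summed to 22374 and 24372 CPM, and none was at 0. The libraries held 70572741 and 55701219 UMIs over all barcodes, and median UMIs per Omp-high cell were 14379 and 12834.

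Within each of the 3 mature-like clusters, which were built without these 7 genes, the 4 genes kept the same direction. In cluster 0 (185 transgenic and 157 wild-type cells) S100a5 was at 15955 and 7258 CPM, in cluster 7 (401 and 211 cells) at 25265 and 15553 CPM, and in cluster 10 (55 and 73 cells) at 19904 and 11618 CPM. The log2 ratios of Pcp4l1 in these clusters were 1.32, 1.19 and 1.52. Those of Kirrel2 were 1.24, 0.92 and 1.09, and those of Kirrel3 -1.08, -1.02 and -1.07. The Calb2-led cluster (158 and 37 cells) had less S100a5 in both libraries, 3777 and 1797 CPM, and the transgenic library was again the higher. The difference between the libraries in S100a5 and Pcp4l1 was therefore present at matched cluster as well as over all Omp-high cells.

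S100a5 was also abundant in free RNA, the RNA found in barcodes with too few UMIs to be cells. Barcodes with under 100 UMIs held S100a5 at 7062 and 3646 CPM, Pcp4l1 at 454 and 205 CPM and Kirrel2 at 205 and 90.1 CPM. Fibroblast-like cells, which should lack these transcripts, held S100a5 at 214 and 135 CPM, Pcp4l1 at 36.9 and 29 CPM and Kirrel2 at 11 and 2.07 CPM. This is the background under the neurons' values. Of Omp-high cells in the mature-like clusters, 15.6% (95% exact binomial interval 12.4 to 19.4) of the wild-type and 2.36% (1.33 to 3.87) of the transgenic cells had S100a5 at or below the fibroblast-like level of their own library. For Pcp4l1 those shares were 43.3% and 4.25%, and for Kirrel2 17.9% and 1.42%. For Pcp4l1 and Kirrel2 the fibroblast-like level was below the CPM of any counted UMI in a cell of median depth. Lying at or below it there meant that no UMI was counted. The wild-type library thus held a larger group of mature-like neurons with S100a5 no higher than in fibroblast-like cells, and a larger group without a Pcp4l1 or a Kirrel2 UMI. These levels differed by library and were chosen after the values were seen.

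The receptor that a neuron expressed was related to the level of several of these genes. A cell was assigned to its leading Olfr gene, the single Olfr gene with the most UMIs, when it had at least 3. Each library was taken alone, over Olfr genes that led at least 2 Omp-high cells and without cells led by the transgene. Cells led by an Olfr gene that also held transgene UMIs were not left out. The transgenic library had 178 such Omp-high cells, beside 394 led by an Olfr gene without a transgene UMI. In the wild type (252 cells, 94 Olfr genes), 78.2% of the variance of log2(CPM + 10) of S100a5 lay between Olfr genes. Pcp4l1 had 78%, Cidea 70.6% and Kirrel2 64.6%. Kirrel3, Kcnn2 and Srxn1 had less, with 26.9%, 25.7% and 2.99%. The median gene had 2.26%, and Nqo1, which marks the dorsal zone of the epithelium and so follows the zone of a receptor, had 86.1%.

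In the transgenic library (344 cells, 126 Olfr genes) less of the variance lay between Olfr genes for 3 of these. S100a5 had 42.4%, Pcp4l1 43.5% and Kirrel2 30.4%. Cidea, at 71.9%, was close to its wild-type value, and so was Nqo1 at 82.3%, while Kirrel3 had 36.1%. Limited to mature-like clusters, the transgenic shares were 66.6% for S100a5, 61.3% for Pcp4l1 and 44.4% for Kirrel2, against 79.3%, 81.7% and 66.1% in the wild type. The gap between the libraries was smaller there, and it rests on 1 library each.

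**Figure D2:**
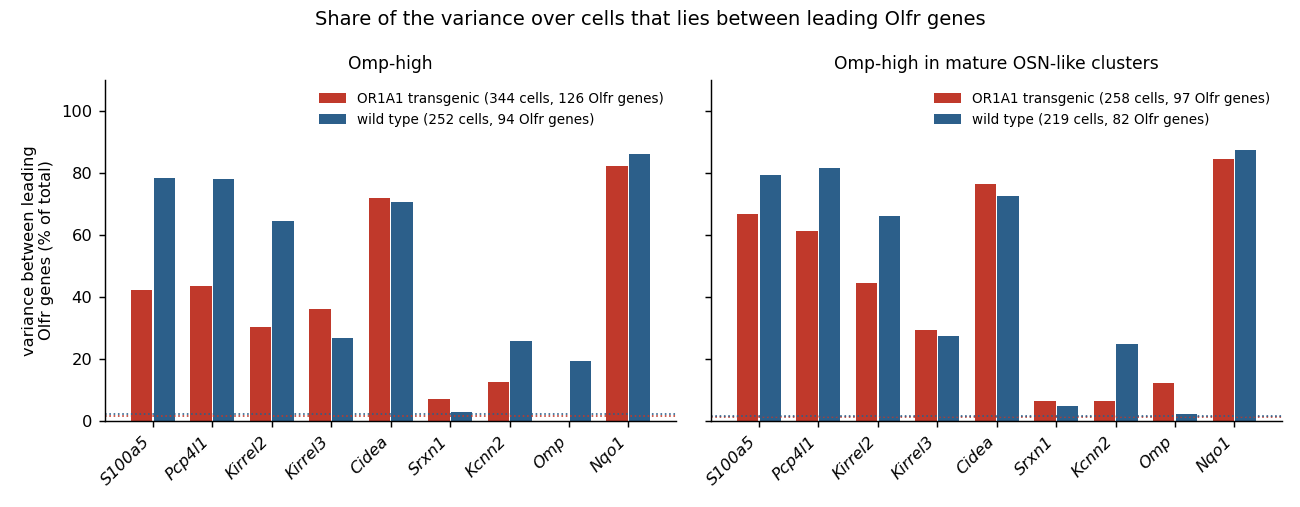
Share of the variance over cells of log2(CPM + 10) that lies between leading Olfr genes, in percent, for the 7 genes, Omp and Nqo1 in each library, over all Omp-high cells (left) and those in mature-like clusters (right); dotted lines are the median over all genes measured. S100a5, Pcp4l1 and Kirrel2 have lower shares in the transgenic library, and Cidea and Nqo1 are high in both.

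Cells with the same receptor could be compared between the 2 animals for 25 Olfr genes that led at least 2 Omp-high cells in each library, 72 transgenic and 66 wild-type cells in all, with at most 8 cells for 1 receptor. Here too, transgenic cells led by an Olfr gene were kept when they also held transgene UMIs. Across these, Cidea was the most alike of the 7 genes between the animals, with Pearson's r of 0.84 and Spearman's rho of 0.82. It had no UMI in either library at 15 of the 25 receptors, so these values rest largely on shared zeros. S100a5 had a UMI at every receptor in both libraries, so the 2 genes are not ranked on like terms. S100a5 had an r of 0.60 and a rho of 0.63. The r was 0.45 for Kirrel3, 0.41 for Kcnn2, 0.40 for Pcp4l1, 0.15 for Srxn1 and 0.11 for Kirrel2. Of 4100 genes measured, 2.46% had an r of 0.5 or more, as did 2 of the 7 genes. For comparison Nqo1 had an r of 0.96 and Omp of 0.23. The points of a library share its depth and free RNA, so these values are descriptions.

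The transgenic cells had the higher S100a5 at 18 of the 25 Olfr genes, the higher Pcp4l1 at 19 and the higher Kirrel2 at 18, and the lower Kirrel3 at 13, with 7 higher. Over 134 Olfr genes that led at least 1 cell in each library, S100a5 was higher in the transgenic library at 86, Pcp4l1 at 89 and Kirrel2 at 88. The median log2 ratio over the 134 was 0.79 for S100a5, 1.33 for Pcp4l1 and 0.69 for Kirrel2. For Kirrel3 it was 0, with 34 receptors higher and 61 lower in the transgenic library and the rest equal.

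Receptors at the top of the S100a5 range in the transgenic library were Olfr1222, Olfr449 and Olfr1043. Olfr1222 cells had 14985, 42354 and 65885 CPM in the transgenic library and 9259 and 35457 CPM in the wild type. Olfr449 cells had 6045, 23752 and 46718 CPM and 41069 and 66003 CPM. Both receptors were thus high in both animals. Olfr1043 cells had 9724 and 37285 CPM in the transgenic library but 129 and 384 CPM in the wild type, against 135 CPM in its fibroblast-like cells.

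At the bottom were Olfr1176, Olfr1196 and Olfr237. Olfr1176 cells had 81.4 and 202 CPM in the transgenic library and 79.6 and 97.1 CPM in the wild type. Olfr1196 cells had 193 and 290.0 CPM and 0, 121 and 279 CPM. These neurons stayed near background in both animals. Olfr237 cells had 135 and 1871 CPM and 2474 and 3375 CPM, with the wild-type cells the higher.

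Under 300 CPM of S100a5, a level set after the values were seen, were 10 of the 25 Olfr genes in the wild type and 2 in the transgenic library, and both of the 2 were among the 10. Pcp4l1 had no UMI at 13 Olfr genes in the wild type and at 3 in the transgenic library. Olfr1507, which led the most cells, was one of the 10. Its 4 wild-type cells had 0, 69.7, 80.5 and 91.7 CPM of S100a5, and its 8 transgenic cells 53.7, 101, 155, 157, 288, 333, 527 and 13052 CPM. Of the 8, 5 were under 300 CPM and 1 was above 1000 CPM, so its summed transgenic level of 4619 CPM against 65.1 CPM in the wild type rests largely on 1 cell.

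Kirrel2 was highest in transgenic cells led by Olfr1418, Olfr281 and Olfr449. Summed over cells it had 1587 CPM at Olfr1418 against 1423 CPM in the wild type. At Olfr281 it had 1581 and 1090.3 CPM. Olfr449, also high in S100a5, had 1489 and 1537 CPM. Lowest were Olfr55 with 206 and 159 CPM, Olfr1513 with 226 and 95 CPM, and Olfr237 with 318 and 444 CPM. These receptors were picked by their transgenic levels, so their side of the transgenic median (645 CPM) was set in advance. In the wild type the 3 highest were above the median of the 25 receptors (359 CPM). Olfr55 and Olfr1513 were below it, and Olfr237 was above it. Over all 25 receptors the r of Kirrel2 between the libraries was 0.11.

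Cidea was also split by receptor. It had no UMI at 16 of the 25 Olfr genes in the transgenic library and at 17 in the wild type, 15 of them shared. Olfr1507 cells, low in S100a5, had Cidea at 50.7, 288, 305, 464, 483, 524, 667 and 737 CPM in the transgenic library and at 155, 183, 627 and 724 CPM in the wild type. Every Olfr1507 cell of both animals had a Cidea UMI.

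**Figure D3:**
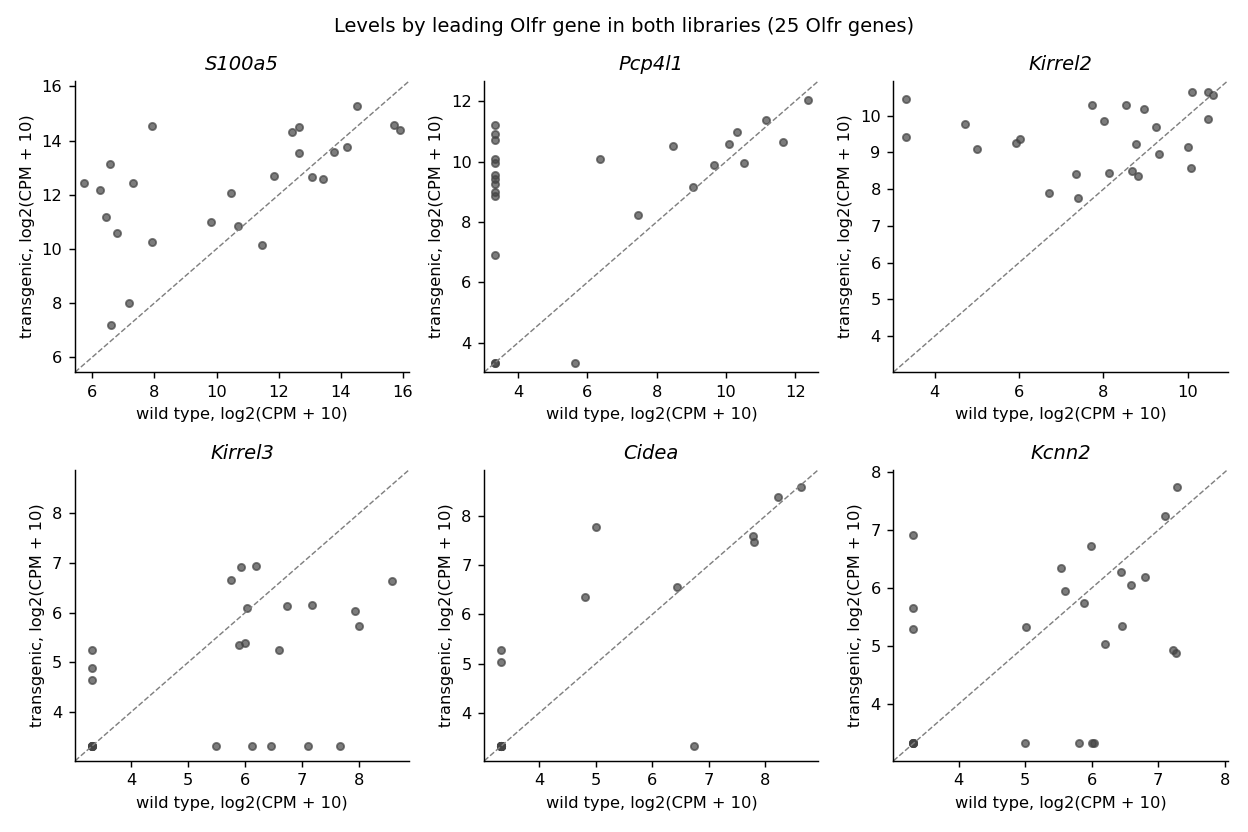
log2(CPM + 10) of 6 of the 7 genes (Srxn1 is not drawn) in wild-type (x axis) against transgenic (y axis) Omp-high cells, 1 point for each of the 25 leading Olfr genes with at least 2 cells in each library and a dashed line of equal levels. Most points of S100a5, Pcp4l1 and Kirrel2 lie above the line, and 15 of the Cidea points overlie each other at 0 CPM in both libraries.

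Within a library, S100a5 and Pcp4l1 varied together. Across leading Olfr genes their Spearman rho was 0.89 in the transgenic library and 0.85 in the wild type, and Pcp4l1 was the gene most like S100a5 of 6559 measured in the transgenic library, as S100a5 was for Pcp4l1. Next for both in that library came Rasgrp4, which encodes a guanine nucleotide exchange factor of Ras, with a rho to S100a5 of 0.76 and 0.56. Dlg2, which encodes a scaffold protein of synapses, was the third there, with 0.73 and 0.35. The order is that of the transgenic library: in the wild type Kirrel2 had a higher rho than Rasgrp4, with 0.75 to S100a5 and 0.63 to Pcp4l1. To Pcp4l1, Rasgrp4 had a rho of 0.78 and 0.56, and Dlg2 of 0.76 and 0.46. By the same order, Kirrel2 was most like Epha5, the receptor of ephrin-A ligands, with 0.77 and 0.86. S100a5 came next at 0.62 and 0.75, then Trp53inp2 at 0.61 and 0.59.

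Kirrel3 ran the other way in both libraries. Its rho with S100a5 was -0.41 and -0.46, with Pcp4l1 -0.29 and -0.33, and with Kirrel2 -0.27 and -0.58. The genes most like Kirrel3 in the transgenic library were B830017H08Rik with 0.47 and 0.65, the sulfotransferase gene Sult1d1 with 0.45 and 0.64, and D930020B18Rik with 0.41 and 0.54. Between Cidea and S100a5 the rho was 0.14 and 0.35. All these are across 126 transgenic and 94 wild-type receptors, whose points share library, depth and free RNA. The Omp-high cells behind them included cells of the Calb2-led cluster. In that cluster S100a5 was at 3777 and 1797 CPM, Pcp4l1 at 412 and 239 CPM and Kirrel2 at 566 and 332 CPM, all lower than in mature-like cells. The part of stage in these correlations was not tested.

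Receptor class and zone gave a further split. Class I receptors, the older family whose neurons lie dorsally, led 39 transgenic and 55 wild-type Omp-high cells of the mature-like clusters, and class II receptors 395 and 350. Class II cells were divided by a UMI of Nqo1, a marker of the dorsal zone. S100a5 was at 16374 CPM with Nqo1 and at 23445 CPM without it in the transgenic library, and at 8279 and 13223 CPM in the wild type. Cidea differed most, with 25.7 against 161 CPM in the transgenic library and 21.5 against 139.9 CPM in the wild type. In class I cells Cidea was at 35.5 and 6.54 CPM, whereas S100a5, at 22588 and 13468 CPM, was near its level in class II cells without Nqo1. Kirrel3 had the reverse order, with 51.5 CPM with Nqo1 and 20.1 CPM without in the transgenic library, and 104 and 45 CPM in the wild type. Among class II cells of both animals, those with Nqo1 thus had less S100a5 and Cidea and more Kirrel3.

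The transgene itself was counted as a feature of its own. Omp-high cells of the transgenic library held 2443 transgene UMIs in 362 of the 781 cells (208 CPM), and the wild-type cells held none. A cell was called transgene-led when it had at least 3 transgene UMIs and more of them than of its leading Olfr gene, which gave 162 cells. They were set against 394 cells of the same mouse that were led by an Olfr gene and had no transgene UMI. S100a5, Pcp4l1 and Kirrel2 were within 1.3-fold between these, and Cidea was 2.07-fold lower in the transgene-led cells.

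S100a5 was at 17730 CPM in transgene-led cells and 17868 CPM in Olfr-led cells, a log2 ratio of -0.01 (-0.03 to 0.01). Pcp4l1 was at 2457 and 1916 CPM (log2 0.36), and Kirrel2 at 1057 and 875 CPM (log2 0.27). Kirrel3 was at 25.7 and 30.3 CPM, from 55 and 179 UMIs, with an interval that included 0. Summed over the transgene-led cells, these 4 genes lay within the range of the 25 Olfr genes compared between the libraries. That range was wide in the transgenic library, from 135 to 39719.6 CPM for S100a5 and from 0 to 4202 CPM for Pcp4l1. Each receptor in it had at most 8 cells. A sum over many more cells could hardly fall outside such a range, so no conclusion about the transgene is drawn from it. Cidea was at 56.5 and 118 CPM (log2 -1.05, -1.35 to -0.78), and Kcnn2 at 70.1 and 51.9 CPM (log2 0.44). Srxn1, with 22.4 and 18.6 CPM in 48 and 110 UMIs, did not reach 20 CPM with 50 UMIs on either side and was not counted.

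Of 6768 genes measured in this contrast, 5.14% were 2-fold or more apart, 0.872% higher and 4.27% lower in transgene-led cells, and of the 6 genes counted only Cidea was past 2-fold. The transgene-led cells held fewer Calb2-led cells (6.17% against 20.3%), less Nqo1 (119 against 311 CPM) and less of the 6 sustentacular markers (88.8 against 387 CPM summed), and their part in these values was not tested. In mature-like clusters alone, the log2 ratio was -0.26 for S100a5 and -0.94 for Cidea, which was then no longer past 2-fold. Among transgene-led cells of the mature-like clusters, Cidea was at 13.6 CPM in the 60 with a Nqo1 UMI and at 85.1 CPM in the 86 without. S100a5 had the opposite order to that of class II cells, with 21623 CPM with Nqo1 and 17306 CPM without, as did Pcp4l1 with 3008 and 2436 CPM. Kirrel3 was at 29.9 and 26.3 CPM, with overlapping counting intervals.

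Grouped by transgene UMIs, 6 of the 7 genes followed no order from group to group. With 0, 1 to 2, 3 to 4, 5 to 9 and 10 or more UMIs (419, 151, 34, 65 and 112 cells), S100a5 was at 17997, 18564, 23887, 18074 and 14965 CPM. Cidea was at 117, 97.2, 58.6, 87.8 and 65.4 CPM. Kirrel2 was the gene with an order, from 879 through 883, 946 and 976 to 978 CPM, in steps that were mostly within the counting intervals. Cells that share the transgene varied less than cells of many receptors in 5 of the 7 genes and more in Srxn1 and Kcnn2. The SD of log2(CPM + 10) between cells was 1.65 in transgene-led and 2.89 in Olfr-led cells for S100a5, 1.77 and 3.1 for Pcp4l1, and 1.16 and 1.62 for Kirrel2. It was 1.8 and 2.27 for Cidea, 1.46 and 1.57 for Kirrel3, 1.42 and 1.31 for Srxn1 and 1.88 and 1.75 for Kcnn2. In mature-like clusters alone the SDs of S100a5, Pcp4l1 and Kirrel2 were 1.42 and 2.26, 1.38 and 2.44, and 1.17 and 1.3.

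**Figure D4:**
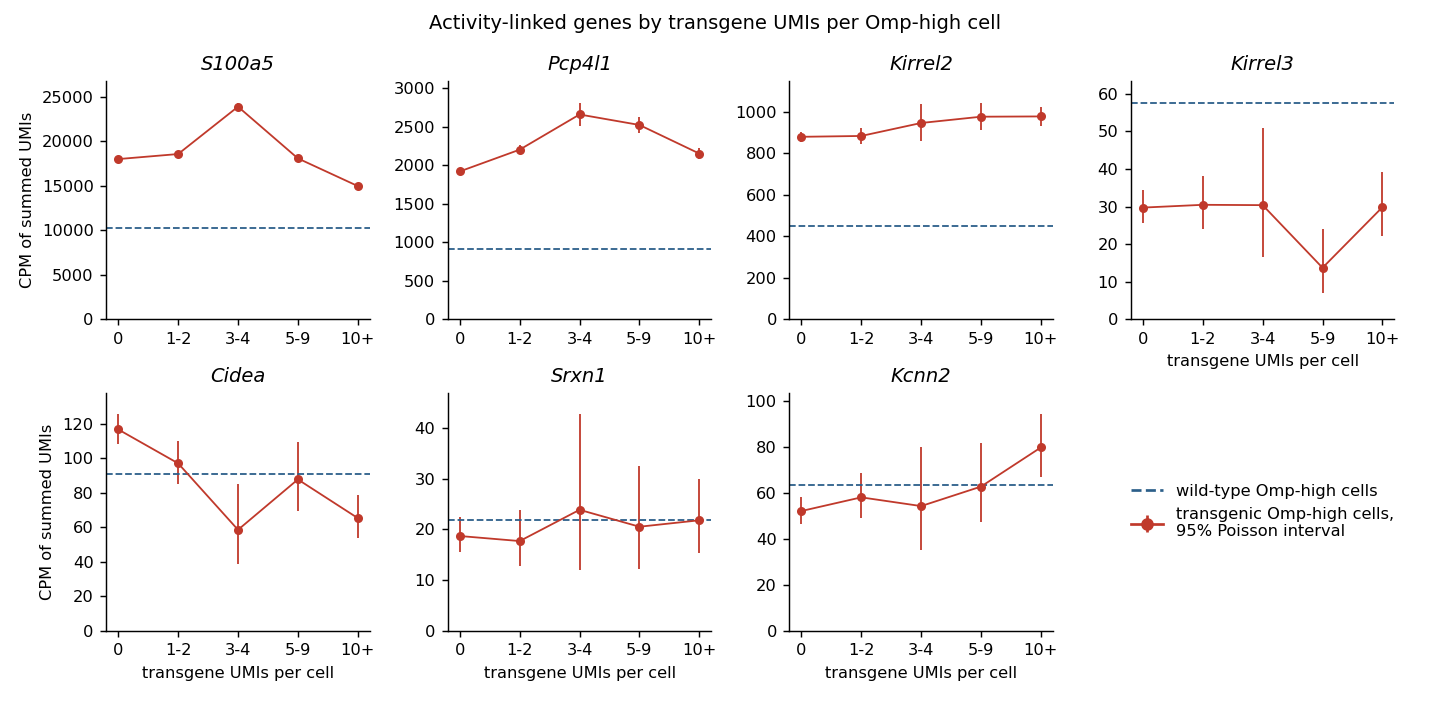
CPM of the 7 genes in Omp-high cells of the transgenic library grouped by transgene UMIs per cell, summed over cells, with 95% exact Poisson intervals that cover counting error only; dashed lines are wild-type Omp-high cells. In every group S100a5, Pcp4l1 and Kirrel2 are above and Kirrel3 below the wild-type line, and Cidea is lower in the 3 groups with at least 3 UMIs than in the other 2.

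Transgenic cells led by an Olfr gene and without a transgene UMI also differed from the wild-type cells led by an Olfr gene. The 394 and 455 cells had log2 ratios of 0.79 for S100a5, 1.09 for Pcp4l1, 0.98 for Kirrel2 and -0.93 for Kirrel3. These are close to the ratios over all Omp-high cells, with only Pcp4l1 past 2-fold, beside 5.63% of 7252 genes. The higher S100a5, Pcp4l1 and Kirrel2 of the transgenic library were thus also present in its cells in which the transgene was not detected. In the following values these cells differed by more than all Omp-high cells did, and the part of that was not tested. Calb2-led cells made up 20.3% of them against 6.15% in the wild type. Gap43 was at 296 and 112 CPM, while the 9 immature neuron markers summed to 3485 and 3091 CPM, with 1 past 2-fold higher and 1 past 2-fold lower. All 6 sustentacular markers were 2-fold or more lower, summing to 387 and 1199 CPM, and the 5 erythroid markers summed to 441 and 85.8 CPM.

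Along the neuronal lineage, the genes came on late. The lineage runs from globose basal cells, the dividing progenitors, through immediate neuronal precursors and immature neurons to mature neurons, and clusters were named by markers of these stages with the 7 genes left out of the clustering. In the transgenic library S100a5 was at 169 CPM in globose basal-like cells (53 cells), 243 in precursor-like (69), 292 in immature-like (183), 3777 in the Calb2-led cluster (158) and 21974 CPM in mature-like cells (641). In the wild type it was at 46.1, 132, 177, 1797 and 11800.2 CPM, in 7, 16, 44, 37 and 441 cells. The first 3 stages were thus near the fibroblast-like level in both libraries.

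Pcp4l1 was present earlier than S100a5. It was at 207 and 199.8 CPM in precursor-like cells of the transgenic and wild-type libraries, above fibroblast-like cells, and at 138 and 156 CPM in immature-like cells, where the libraries did not differ beyond counting error. In mature-like cells it was at 2555 and 1010.4 CPM. The difference between the libraries in Pcp4l1 was thus seen in the later stages. Kirrel2 went from 32.5 and 26 CPM in immature-like cells to 566 and 332 CPM in the Calb2-led cluster and 1017 and 485 CPM in mature-like cells.

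Kirrel3 and Cidea were already near their mature level in the Calb2-led cluster. Kirrel3 was at 13.6, 36.4 and 27.4 CPM in immature-like, Calb2-led and mature-like cells of the transgenic library and at 20.3, 47.5 and 60.2 CPM in the wild type. Cidea was at 10.3, 112 and 99.8 CPM and at 27.5, 130.5 and 94.7 CPM. Srxn1 and Kcnn2 were lower before the mature stage, with 1.43 and 20.6 CPM for Srxn1 and 17.5 and 65.4 CPM for Kcnn2 in immature-like and mature-like transgenic cells.

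**Figure D5:**
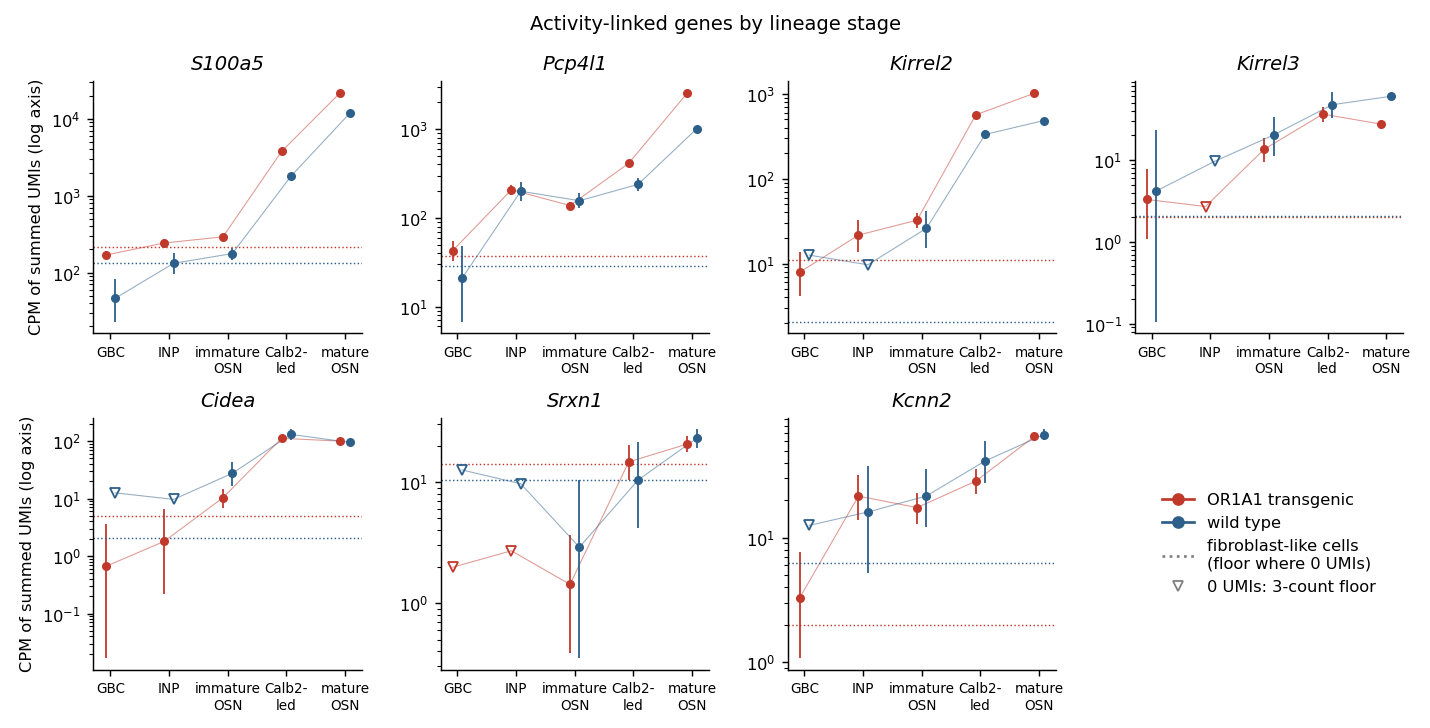
Summed CPM of the 7 genes by lineage stage in each library (log axis) from globose basal-like (GBC) and precursor-like (INP) cells to mature-like neurons, with 95% exact Poisson intervals; open triangles mark the 3-count floor where no UMI was counted, and dotted lines are fibroblast-like cells of each library, at that floor where they have no UMI. S100a5 and Kirrel2 step up between immature-like and Calb2-led cells and again in mature-like cells.

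From immature-like to mature-like cells, the log2 ratios in the transgenic and wild-type libraries were 6.23 and 6.05 for S100a5, 4.95 and 4.14 for Kirrel2, and 4.21 and 2.68 for Pcp4l1. They were 3.54 and 2.41 for Srxn1 (with intervals of 2.47 to 5.74 and 1.11 to 6.05, from 4 and 2 UMIs in immature-like cells), 3.22 and 1.71 for Cidea, 1.88 and 1.55 for Kcnn2, and 0.99 and 1.48 for Kirrel3. In the transgenic library 6 of the 7 genes were 2-fold or more higher in mature-like cells, beside 14.1% of 7631 genes, and in the wild type all 7, beside 15.7% of 6871 genes. Kirrel3 in the transgenic library was the gene under the line. The values depend on where the clustering divides the stages: at a finer resolution the ratio was 2.59 and 2.42 for Kirrel2, 4.91 and 5.09 for S100a5, and 1.98 and 0.72 for Cidea, which in the wild type was then under the 2-fold line.

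Other genes of the same pathways were read from 9 lists. Of 8 immediate early genes measured, which respond to activity within minutes, none was 2-fold apart between the libraries. Their median log2 ratio was 0.36, with Junb at 93.7 and 49.4 CPM and Egr1 at 56.3 and 33.2 CPM. Summed, however, all 16 genes of the list were about equal, at 1747 and 1724 CPM. In mature-like cells Jund, the most abundant of the list, was lower in the transgenic library, at 713 and 948 CPM. Dusp1 was lower there too, at 77.3 and 92 CPM. Of 16 genes of olfactory transduction, the cascade from the receptor's G protein to the cAMP-gated channel, none was 2-fold apart (median -0.20). Of 15 axon and adhesion genes, Efna5, an ephrin ligand of Epha5, was lower (57 and 180.0 CPM), and so was Kirrel, the close relative of Kirrel2 and Kirrel3 (19 and 44 CPM). The list's median was -0.26.

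H2bc21, listed on its own as the gene of histone H2be, known to fall with activity, was also lower in the transgenic library, at 210.1 against 458 CPM (log2 -1.13). Among 3 relatives of S100a5 that were measured, S100a6 was past 2-fold higher, at 78.6 and 27.7 CPM, and S100a1 and S100a13 were not past 2-fold. S100a5 itself, at 1.74-fold, was not past that line either. The median log2 ratio of the 3 relatives, which is the value of 1 gene, was 0.25. All 7 relatives on the list, measured or not, summed to 223 and 164 CPM, and S100a6 made up most of that difference. None of 5 calmodulin and IQ-motif genes, 12 antioxidant genes, 2 potassium channel genes and 1 lipid droplet gene was 2-fold apart, with medians of -0.05, -0.13, 0.31 and 0.0044. Of 63 genes measured across these lists, S100a6 was the 1 higher (1.59%, beside 1.43% of all genes) and Efna5, Kirrel and H2bc21 the 3 lower (4.76%, beside 3.09%), so both shares were near those of all genes.

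In transgene-led against Olfr-led cells, 9 of 61 measured genes of the lists (14.8%) were 2-fold or more lower, beside 4.27% of all genes, and none was higher, beside 0.872%. H2bc21 was at 61.2 and 266 CPM and Camk2n1, an inhibitor of CaM kinase II, at 20.1 and 97.9 CPM. Kirrel was at 2.8 and 23.5 CPM, from 6 and 139 UMIs. Nphs1, Pcdh10 and Ncam2 of the axon and adhesion list, S100a1 and S100a6 of the S100 list, and Nqo1 were the others. The same cells had fewer Calb2-led cells and less Nqo1, as given above, and the part of that in these values was not tested.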

How the data were processed

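Counts of UMIs per gene and barcode, raw and not normalized, were deposited by the authors as 1 unfiltered 10x matrix per library. The matrices came from Cell Ranger 6.1.1 on GRCm39 (mm39), per the submitters' processing notes, while the file headers name an earlier major version. The unfiltered matrices list 2037787 (transgenic) and 1577106 (wild-type) barcodes.

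Cells were called here as barcodes with at least 10% of the 99th percentile of the UMI totals of the top 5000 barcodes (5827 and 5318 UMIs), no fewer than 500 genes detected, and a mitochondrial share of UMIs up to 10%. Scrublet in scanpy 1.11.5 marked 4 and 2 cells as doublets, which were left out, and as an alternative the top 5% by doublet score were dropped too. One barcode sequence was shared by the called cells of the 2 libraries and none by the Omp-high cells. Clusters were made from 2000 variable genes, 30 components and 15 neighbours (Leiden, resolution 1), without the 7 genes, Olfr genes and the added features, and named from 118 markers of 21 cell types. UMIs were summed over cells and given as CPM. Genes counted as measured had at least 20 CPM and 50 UMIs on 1 side, and 2-fold was the line for a difference. Correlations between libraries used log2(CPM + 10) of cells summed per leading Olfr gene. The functions were tested on simulated data with known answers. Cells of 1 animal are not replicates, so no p-value was made. The 7 genes, the 9 lists and the rules were chosen with earlier results of these data known. Olfr genes named in the text are the 3 highest and 3 lowest in transgenic S100a5 or Kirrel2, and named list genes are those past 2-fold. Genes most alike are the 3 with the highest rho in the transgenic library. Olfr1507, Junb, Egr1, Jund, Dusp1 and the genes named as not past 2-fold were chosen after their values were seen. Promoters are from RefSeq.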

Additional observations from a re-analysis of the deposited data

How the results depend on the processing

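No paired analysis was possible because each group is 1 library. Between libraries, 1 gene was 2-fold or more higher with an Omp minimum of 0.1%, 0 with a mitochondrial share of at most 5%, and 1 (with 0 lower) when Olfr genes shared by the libraries were each weighed once, an alternative added after the data were seen. The share of genes past 2-fold was 19.7% with no filter on low values and 0.278% with shared Olfr genes weighed once. The log2 ratio ranged over 13 settings from 0.59 to 0.90 for S100a5, from 0.91 to 1.34 for Pcp4l1, from 0.69 to 1.05 for Kirrel2 and from -1.12 to 0 for Kirrel3. In transgene-led cells, 0 genes were 2-fold lower with at least 10 transgene UMIs and 0 in mature-like clusters only. Across leading Olfr genes, 1 gene had an r of 0.5 or more when 1 cell in each library sufficed, and the share of genes at that r was 0.356% there, 4.58% with an Omp minimum of 0.3% and 5.87% after thinning. With 3 cells in each library only 3 Olfr genes were left, so no r was given. Without the filter on low values, list genes past 2-fold numbered 4 higher and 8 lower between libraries, and 3 higher and 14 lower in transgene-led cells. The cause of these changes was not tested, other than that the filter removes genes with few UMIs. The near-0 transgene-led ratios changed sign over 9 settings for S100a5 (-0.26 to 0.05), Kirrel3 (-0.30 to 0.26) and Srxn1 (-0.13 to 0.30). Depth limits Kirrel3, Srxn1 and Cidea most, whose median Omp-high cell held no UMI.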

Other observations

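Some of the 7 genes were also counted outside the neuronal lineage. Pcp4l1 was at 1407 CPM in 71 endothelial-like cells of the transgenic library and at 1624 CPM in 88 of the wild type, against 36.9 and 29 CPM in fibroblast-like cells. In the wild type this was above its level in mature-like neurons, and in the transgenic library below it. S100a5 in the same endothelial-like cells was at 156 and 101 CPM, close to the fibroblast-like level.

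Kirrel3 was highest in tuft-like microvillar cells, a chemosensory cell type, at 87.4 CPM in the 40 of the transgenic library and 141 CPM in the 23 of the wild type, from 31 and 24 UMIs. Ionocyte-like microvillar cells had 25.7 and 75.1 CPM, from 21 and 16 UMIs in 45 and 12 cells. Kirrel2 in tuft-like cells was at 11.3 and 5.87 CPM, from 4 UMIs and 1 UMI.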
